A study of Mus musculus with 6 samples.

Results

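Immediate early genes are the first genes that a cell transcribes after a stimulus such as serum, a growth factor or stress, before any new protein has to be made. The set described here holds 10 of the 55401 genes of the deposited count table: Sik1, Fos, Fosb, Fosl1, Jun, Junb, Egr1, Ier2, Ier3 and Dusp1, found by symbol. Sik1 was chosen from the values of the comparison of Thbs2KO with WT, in which it was one of 148 genes that passed the test, and the other 9 were added for their known role as early genes with the results of the same comparison in view. The differences between genotypes for these 10 genes are therefore given as a description and support no statement.

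The study sequenced RNA of cancer-associated fibroblasts (CAFs), connective tissue cells that tumours recruit and activate, which had been taken from tumours and grown in culture. There were 2 groups: 3 libraries of CAFs from Thbs2KO mice, in which the gene for the secreted matricellular protein thrombospondin-2 is knocked out, and 3 libraries of CAFs from wild-type (WT) mice. In both groups the tumours had formed from mouse tumour organoids implanted orthotopically in the rectum, and the cells were cultured on fibronectin in medium with serum. The labels give no age or strain of the mice, do not say whether replicates are separate animals or cultures, and do not give the time between the last medium change and lysis, so the spread behind each p-value is that between these 6 libraries and may be technical.

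Levels are given as CPM, that is reads relative to the library total, scaled with TMM factors. Totals ran from 19649066 to 24417464 expected counts per library. Thbs2 averaged 458 ± 69.5 CPM in Thbs2KO and 3399 ± 957 CPM in WT (SD, n = 3 each), so the libraries follow their genotype labels. The fibroblast markers were abundant, with a summed level of 36524 to 54573 CPM in Thbs2KO and 36481 to 42865 CPM in WT over 12 genes. The summed immune markers stood at 8.17 to 13.0 CPM in Thbs2KO and 9.04 to 19.5 CPM in WT over 10 genes, with Cd3e and Ms4a1 at 0, and the epithelial markers at 12.4 to 18.2 CPM in Thbs2KO and 25.1 to 34.3 CPM in WT over 10 genes. The endothelial markers summed to 32.2 to 50.5 CPM in Thbs2KO and 11.8 to 32.0 CPM in WT over 8 genes, with Kdr at 21.5 to 45.0 CPM in Thbs2KO and 2.5 to 26.3 CPM in WT and Cldn5 at 0. Thbs2KO replicates 1 and 2 resembled each other most closely: a chi-square test of their counts gave 3.78 per degree of freedom, and all other pairs gave 15.7 to 122. Fold changes of the 10 genes and counts over the lists are also given without Thbs2KO replicate 3 and WT replicate 1, the libraries at the ends of the order described below. In a bulk sample, fewer cells of a type and less RNA per cell cannot be told apart.

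The 10 products act at different points of one response. Growth factor signals reach the nucleus through ERK and other MAP kinases, which act on the serum response factor SRF and its partners, while cyclic AMP and calcium act through the factor CREB, which binds the cyclic AMP response element (CRE). Fos, Fosb and Fosl1 encode Fos proteins, which pair with the Jun proteins encoded by Jun and Junb to form the transcription factor AP-1. Egr1 is a zinc finger transcription factor, Dusp1 a phosphatase that switches MAP kinases off, and Ier2 and Ier3 are short early response proteins. Sik1, salt-inducible kinase 1, is itself induced by cyclic AMP and CREB and, by phosphorylating the CRTC coactivators of CREB, restrains that pathway.

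The promoter windows below are shown because CREB is one of the factors through which these genes are induced. In the RefSeq promoter table for GRCm38.p6, which gives 250 bases before and 50 after the start of a gene, 6 of the 10 genes were matched by symbol, without Sik1, Fosl1, Egr1 and Ier2. The letters TGACG, the core of a CRE, were sought on both strands, with overlapping matches counted once, as were the full palindromic CRE TGACGTCA, the AP-1 element TGACTCA or TGAGTCA, and the CArG box of SRF. The core was found in 4 of the 6 windows, against 20.8% of all 32851 windows in the table, and the full site in Dusp1, against 1.79%. The AP-1 element (5.2% of all windows) and the CArG box (1.63%) were in 0 of the 6. Elements outside the window and variants of these letters were not sought, so a window without a match does not show that the gene lacks the element. The windows with a match are given 5′ to 3′ on the strand of the gene, with matches in capitals. Junb is at chr8:84978699-84978998 (minus strand), Dusp1 at chr17:26508423-26508722 (minus strand), Fos at chr12:85473640-85473939 (plus strand) and Fosb at chr7:19309996-19310295 (minus strand).
Junb: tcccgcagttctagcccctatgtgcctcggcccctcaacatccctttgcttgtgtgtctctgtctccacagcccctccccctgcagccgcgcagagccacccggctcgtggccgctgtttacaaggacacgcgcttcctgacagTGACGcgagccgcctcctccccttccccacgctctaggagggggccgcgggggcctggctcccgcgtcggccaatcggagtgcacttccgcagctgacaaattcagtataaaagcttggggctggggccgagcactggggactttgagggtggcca
Dusp1: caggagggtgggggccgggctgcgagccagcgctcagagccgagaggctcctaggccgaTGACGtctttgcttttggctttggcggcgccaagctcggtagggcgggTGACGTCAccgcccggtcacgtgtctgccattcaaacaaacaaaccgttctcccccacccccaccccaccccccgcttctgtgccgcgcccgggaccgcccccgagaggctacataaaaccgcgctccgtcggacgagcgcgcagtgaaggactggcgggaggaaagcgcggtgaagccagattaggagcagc
Fos: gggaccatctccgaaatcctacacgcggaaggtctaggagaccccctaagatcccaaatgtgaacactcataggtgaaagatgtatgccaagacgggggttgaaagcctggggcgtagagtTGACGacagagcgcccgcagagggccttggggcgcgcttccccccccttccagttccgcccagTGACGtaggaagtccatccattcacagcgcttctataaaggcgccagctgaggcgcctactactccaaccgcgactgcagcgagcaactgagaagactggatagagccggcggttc
Fosb: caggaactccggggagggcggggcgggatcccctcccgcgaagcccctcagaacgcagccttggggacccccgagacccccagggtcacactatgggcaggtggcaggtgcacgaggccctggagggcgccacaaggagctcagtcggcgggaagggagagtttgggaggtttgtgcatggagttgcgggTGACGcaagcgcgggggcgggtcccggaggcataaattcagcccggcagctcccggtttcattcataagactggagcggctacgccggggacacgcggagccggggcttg
Counted from the RefSeq start, the cores began at -106 in Junb, at -191 and -143 in Dusp1, at -129 and -66 in Fos, and at -60 in Fosb. The match at -143 in Dusp1 was the full site and included the core there. The RefSeq start of Dusp1 lies 53.7 kb inside the longer gene model of GENCODE M21, from which its coordinates are given below, and the starts of the other 5 genes differ by at most 30 bases between the annotations. The windows of Jun and Ier3 held none of these letters. A match of letters describes the sequence and does not show that a factor was bound there in these cells.

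Sik1 (ENSMUSG00000024042.7, chromosome 17, 31844250 to 31855804, minus strand, mm10, protein-coding) measured 3.69, 4.94 and 3.96 CPM in Thbs2KO replicates 1, 2 and 3, and 12.1, 18.3 and 19.6 CPM in WT replicates 1, 2 and 3. The Thbs2KO libraries were all lower than the WT libraries, and WT replicate 1 was the lowest of the WT libraries. These levels rest on 78, 101 and 81 reads in Thbs2KO and on 280, 417 and 467 reads in WT. The mean was 4.2 ± 0.66 CPM in Thbs2KO and 16.6 ± 4.02 CPM in WT (SD, n = 3 each), so Thbs2KO held 25.2% of the WT level, giving a log2 fold change of -1.99 (standard error 0.226). The summed epithelial markers were also lower in all 3 Thbs2KO libraries than in the WT libraries (12.7, 12.4 and 18.2 CPM in Thbs2KO, 30.3, 25.1 and 34.3 CPM in WT). All 7 tested markers of 10 were negative, as were 50.9% of all tested genes. That sum is carried largely by Krt19 (5.77, 6.21 and 3.57 CPM in Thbs2KO, 14.6, 9.86 and 13.8 CPM in WT) and Lgr5. For Lgr5 the genotypes overlapped (5.39, 4.4 and 8.36 CPM in Thbs2KO, 10.3, 3.37 and 7.42 CPM in WT). The pericyte and smooth muscle markers summed to 2265, 2601 and 2705 CPM in Thbs2KO and 2705, 5774 and 5921 CPM in WT over 12 genes, with 0 higher and 6 lower of 11 tested at an unadjusted p under 0.05. Acta2 alone made up most of this marker sum (1832, 2028 and 2267 CPM in Thbs2KO, 2289, 4345 and 4868 CPM in WT). Log2 fold changes were negative for 8 of the 11 tested markers, and the others were Des (0.05), Cspg4 (0.36) and Abcc9 (0.02). The sum therefore mainly follows Acta2 and does not stand for every marker in the list. WT replicate 1 was the lowest WT library in that sum, as it was for Sik1. The part of either marker list in the level of Sik1 was not tested. With each library left out in turn the log2 fold change stayed between -2.17 and -1.85. The edgeR Benjamini-Hochberg adjusted p by which Sik1 was chosen was 0.0158. It lost the threshold of 0.05 in 5 of the 6 fits with 1 library left out: it was 0.107, 0.0631 and 0.0552 without Thbs2KO replicate 1, 2 or 3, and 0.00595, 0.0593 and 0.0744 without WT replicate 1, 2 or 3 (edgeR, Benjamini-Hochberg).

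Across the whole comparison 1.09% of the 13590 tested genes passed that threshold, 0.552% higher and 0.537% lower in Thbs2KO. All 10 early genes passed the filter on low counts and were tested, and 1 of them, Sik1, passed the threshold. Groups that did not overlap occurred in 19.7% of tested genes, with Thbs2KO lower in 10.3% and higher in 9.37%. Among the early genes Sik1 was lower without overlap, and for the other 9 the genotypes overlapped. Of the 10, 8 had a negative log2 fold change, with a median of -0.26 over the 10. Over all tested genes 50.9% were negative, with a median of -0.00377.

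**Figure D1:**
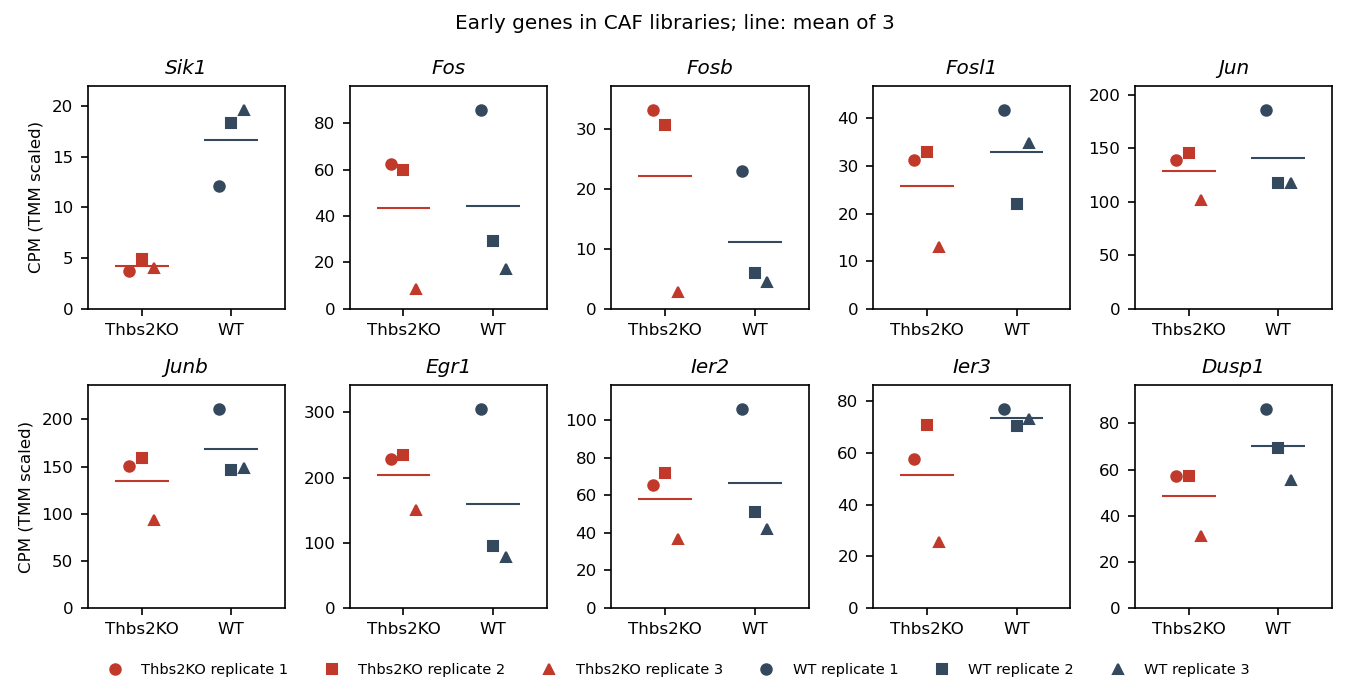
Level of each of the 10 genes in every library, in TMM-scaled CPM on a linear axis that starts at 0, with Thbs2KO on the left and WT on the right; symbols mark the replicate number and horizontal lines the mean of 3 libraries. The genotypes are apart for Sik1 (3.69 to 4.94 CPM in Thbs2KO and 12.1 to 19.6 CPM in WT), and overlap in the other 9 panels, where Thbs2KO replicate 3 is the lowest Thbs2KO library and WT replicate 1 the highest WT library.

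Fos (chromosome 12, 85473890 to 85477273), the prototype AP-1 gene, measured 62.6, 59.7 and 8.31 CPM in Thbs2KO replicates 1, 2 and 3, and 85.8, 29.3 and 17.2 CPM in WT replicates 1, 2 and 3. Both genotypes held a library with several times the level of another: the highest was 7.53 times the lowest within Thbs2KO and 4.99 times within WT. The means were 43.5 ± 30.5 CPM in Thbs2KO and 44.1 ± 36.6 CPM in WT (SD, n = 3 each), giving a log2 fold change of -0.02 (standard error 0.827).

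Fosb (chromosome 7, 19302696 to 19310051), which encodes FosB and its truncated form ΔFosB, had the same order of libraries within each genotype. It measured 33.2, 30.6 and 2.84 CPM in the Thbs2KO libraries and 23.0, 5.96 and 4.44 CPM in the WT libraries. The ratio of the highest to the lowest library within Thbs2KO was 11.7, the largest among the 10 genes, and within WT it was 5.17. The log2 fold change was 1.00 (standard error 0.943), so the difference of the means was about the size of its own error.

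Fosl1 (chromosome 19, 5447547 to 5455946), which encodes Fra-1, measured 31.2, 33.0 and 13.0 CPM in Thbs2KO and 41.8, 22.1 and 34.9 CPM in WT. Its range was narrower than that of Fos, and Thbs2KO replicate 3 was the lowest of the 6 libraries. The log2 fold change was -0.36 (standard error 0.385). Fosl1 overlaps Ccdc85b on the opposite strand, and the library kit does not mark strand, so reads from the overlap could belong to either gene.

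Jun (chromosome 4, 95049034 to 95052222) measured 139, 146 and 102 CPM in Thbs2KO and 186, 118 and 118 CPM in WT. Its partner in the family, Junb (chromosome 8, 84974484 to 84978718), measured 151, 159 and 92.9 CPM in Thbs2KO and 211, 146 and 148 CPM in WT. Both varied much less than Fos: the highest library was 1.81 times the lowest for Jun and 2.28 times for Junb over all 6 libraries, against 10.3 times for Fos. The log2 fold changes were -0.12 (standard error 0.22) for Jun and -0.32 (standard error 0.24) for Junb. Jun overlaps the antisense gene Junos, which was near 0 (0.304 CPM in Thbs2KO and 0.471 CPM in WT), and Junb overlaps Prdx2 on the opposite strand.

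Egr1 (chromosome 18, 34859823 to 34864984), the zinc finger factor, measured 228, 235 and 150.3 CPM in Thbs2KO and 305, 94.8 and 78.1 CPM in WT. WT replicate 1 was above every Thbs2KO library, and WT replicates 2 and 3 were below every Thbs2KO library. The means were 204 ± 47.0 CPM in Thbs2KO and 159 ± 126 CPM in WT (SD, n = 3 each), giving a log2 fold change of 0.36 (standard error 0.522).

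Ier2 (chromosome 8, 84661331 to 84662852) measured 65.8, 71.8 and 36.9 CPM in Thbs2KO and 106, 51.0 and 42.3 CPM in WT, again with WT replicate 1 highest and Thbs2KO replicate 3 lowest. Ier3 (chromosome 17, 35821684 to 35822923), also known as IEX-1, measured 57.8, 70.9 and 25.7 CPM in Thbs2KO and 77.0, 70.4 and 73.2 CPM in WT. The WT libraries agreed closely for Ier3, with the highest 1.09 times the lowest, and the Thbs2KO libraries did not, at 2.76 times. The log2 fold changes were -0.19 (standard error 0.399) for Ier2 and -0.52 (standard error 0.334) for Ier3. Without Thbs2KO replicate 3 the value for Ier3 was -0.19.

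Dusp1 (chromosome 17, 26505590 to 26562128), the phosphatase whose promoter holds the full CRE printed above, measured 57.1, 57.4 and 31.0 CPM in Thbs2KO and 86.2, 69.3 and 55.6 CPM in WT. WT replicate 3 lay below Thbs2KO replicates 1 and 2, so the genotypes overlapped. The log2 fold change was -0.54 (standard error 0.269), and -0.30 without Thbs2KO replicate 3. In the GENCODE model, which starts 53.7 kb upstream of the RefSeq start, Dusp1 overlaps Ergic1 on the opposite strand, which measured 184 CPM in Thbs2KO and 255 CPM in WT and itself passed the test (log2 fold change -0.47, edgeR with Benjamini-Hochberg adjustment, adjusted p = 0.0408). Reads from the overlap could belong to either gene.

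Apart from Sik1, these genes shared an order of libraries that did not follow genotype. Thbs2KO replicate 3 was the lowest Thbs2KO library and WT replicate 1 the highest WT library for 9 of the 10 genes, all but Sik1. Over all tested genes 40.5% had Thbs2KO replicate 3 lowest in its genotype, 42.1% had WT replicate 1 highest in its genotype, and 9.13% had both. WT replicate 1 was the highest of all 6 libraries for 8 of the 10 genes (20% of tested genes), and Thbs2KO replicate 3 the lowest of all 6 for 8 of the 10 (25.8% of tested genes). The summed level of the 10 genes was 829, 869 and 467 CPM in Thbs2KO replicates 1, 2 and 3 and 1134, 625 and 591 CPM in WT replicates 1, 2 and 3. The heat shock and cell dissociation genes, a list of 13 genes that cell handling is known to induce, summed to 4364, 4515 and 3682 CPM in Thbs2KO and 4013, 4518 and 4476 CPM in WT. Thbs2KO replicate 3 was the lowest library in that sum too, and WT replicate 1 was the lowest WT library. That sum is carried largely by Hspa8 (2264, 2363 and 2017 CPM in Thbs2KO, 2173, 2389 and 2281 CPM in WT) and Hsp90aa1. Gene by gene, 12 of the 13 had Thbs2KO replicate 3 as the lowest Thbs2KO library, and 3 of the 13, Dnajb1, Bag3 and Nfkbiz, had WT replicate 1 as the highest WT library. The share of reads from mitochondrial genes was 0.974% in Thbs2KO replicate 3 and 1.22% to 1.32% in the other 5 libraries. The part of handling or RNA quality in these differences was not tested.

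**Figure D2:**
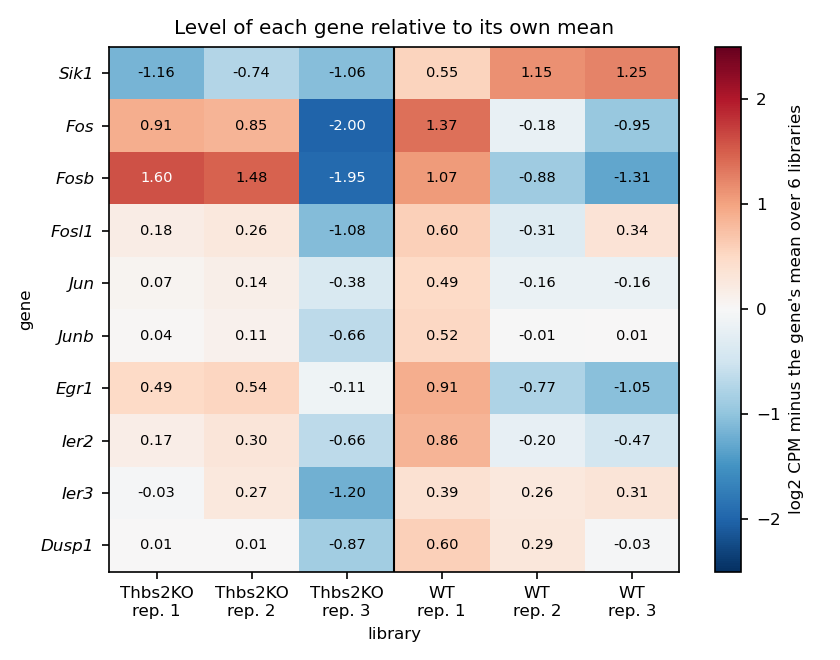
Log2 CPM of each gene (rows) in each library (columns, Thbs2KO left of the black line and WT right of it) minus the mean of that gene over the 6 libraries; red is above and blue below the mean. Sik1 changes colour at the line between genotypes, with -1.16, -0.74 and -1.06 in Thbs2KO and 0.55, 1.15 and 1.25 in WT, whereas Fos is lowest in Thbs2KO replicate 3 (-2.0) and highest in WT replicate 1 (1.37).

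The spread within a genotype, as the pooled SD of log2 CPM, was 1.66 for Fosb, 1.44 for Fos and 0.793 for Egr1, against a median of 0.148 over genes of at least 5 CPM. Their values stood at or above the 98.2 percentile of those genes. Sik1, at 0.307, and Jun, at 0.331, were the least variable of the 10 and stood at the 84.3 and 86.5 percentile. As a description over only 6 libraries, the log2 levels of the 9 genes other than Sik1 had Pearson correlations with one another from 0.03 to 0.99 over 36 pairs, with a median of 0.795. Centring each genotype on its own mean gave a median of 0.88. Sik1 with the other 9 ranged from -0.59 (Egr1) to 0.60 (Ier3), with a median of 0.05, and with centred values from -0.77 to 0.17. The points share the same 6 libraries and their scaling.

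Leaving out libraries turned the direction of Fos, Ier2, Jun, Junb and Fosl1, and not of Sik1. Thbs2KO replicate 3 and WT replicate 1 were left out because they stood at the ends of the order that 9 of the 10 genes shared. Leaving them out therefore raises the fold changes of those 9 by construction. The turn, the contrast with Sik1 and the calls given below follow from that choice and are no separate result. Thbs2KO replicates 1 and 2 averaged 231 CPM of Egr1, 61.1 CPM of Fos and 31.9 CPM of Fosb, against 86.4, 23.2 and 5.20 CPM in WT replicates 2 and 3. Without WT replicate 1, the log2 fold change was 1.24 for Egr1, 0.91 for Fos, 2.10 for Fosb and -2.17 for Sik1. With both Thbs2KO replicate 3 and WT replicate 1 left out, it was 1.42 for Egr1, 1.40 for Fos, 2.62 for Fosb, 0.56 for Ier2, 0.27 for Jun, 0.17 for Fosl1, 0.08 for Junb, -0.12 for Dusp1, -0.16 for Ier3 and -2.13 for Sik1, and 3 of the 10 genes were negative. In that fit 5 of the 10 genes passed the adjusted threshold (Fosb, Egr1, Jun and Ier2 higher and Sik1 lower in Thbs2KO), and so did 11.2% of all genes tested in it. That comparison sets Thbs2KO replicates 1 and 2, which differ little from each other, against 2 WT libraries. The mean of Thbs2KO replicates 1 and 2 was above that of WT replicates 2 and 3 for 7 of the 10 genes, all but Sik1, Ier3 and Dusp1, and for 50.1% of tested genes. Over all tested genes 28.8% had both Thbs2KO replicates 1 and 2 above both WT replicates 2 and 3, as 6 of the 10 early genes had: Fos, Fosb, Jun, Junb, Egr1 and Ier2. Without Thbs2KO replicate 3 alone, the log2 fold change was 0.47 for Fos and 0.54 for Egr1.

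**Figure D3:**
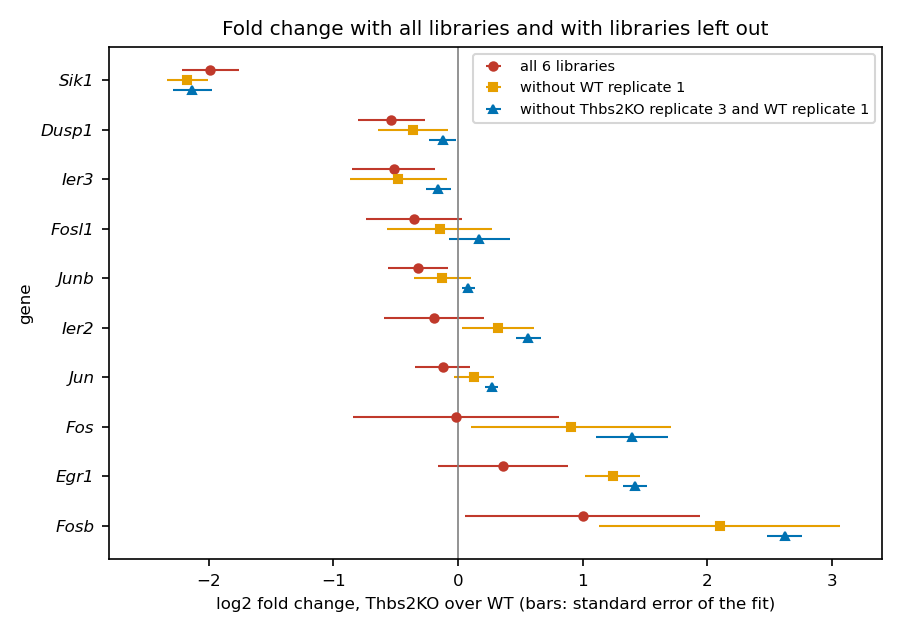
Log2 fold change of Thbs2KO over WT for each of the 10 genes, with bars of 1 standard error of the fit, from all 6 libraries (red circles), without WT replicate 1 (orange squares) and without both Thbs2KO replicate 3 and WT replicate 1 (blue triangles). Sik1 stays between -2.17 and -1.99 in the 3 fits, while Fos is at -0.02 with all libraries and 1.40 without both, and Egr1 at 0.36 with all and 1.42 without both.

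To compare genes of one family, CPM was divided by the exonic length of each gene (CPM per kb). Fosl2 and Jund, which complete the families, were added outside the naming rule. Among the Fos genes, Fosl2, which encodes Fra-2, stood at 38.0 CPM per kb in Thbs2KO and 29.7 CPM per kb in WT. Fos followed at 18.5 CPM per kb in Thbs2KO and 18.7 CPM per kb in WT, then Fosl1 at 12.6 CPM per kb in Thbs2KO and 16.2 CPM per kb in WT, and Fosb at 3.56 CPM per kb in Thbs2KO and 1.78 CPM per kb in WT. The make-up of the family differed between libraries of one genotype. Fos held 33.0%, 31.2% and 6.26% of the summed Fos family level per kb in Thbs2KO replicates 1, 2 and 3, and 41.5%, 21.6% and 13.6% in WT replicates 1, 2 and 3. Fosl2 held 41.3%, 42.8% and 81.6% in Thbs2KO and 30.9%, 58.0% and 53.1% in WT. The Jun family was steadier: Junb held 36.7% to 46.6% of the summed level per kb in Thbs2KO and 46.1% to 48.6% in WT, Jun 29.2% to 30.8% in Thbs2KO and 26.9% to 30.8% in WT, and Jund the rest.

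**Figure D4:**
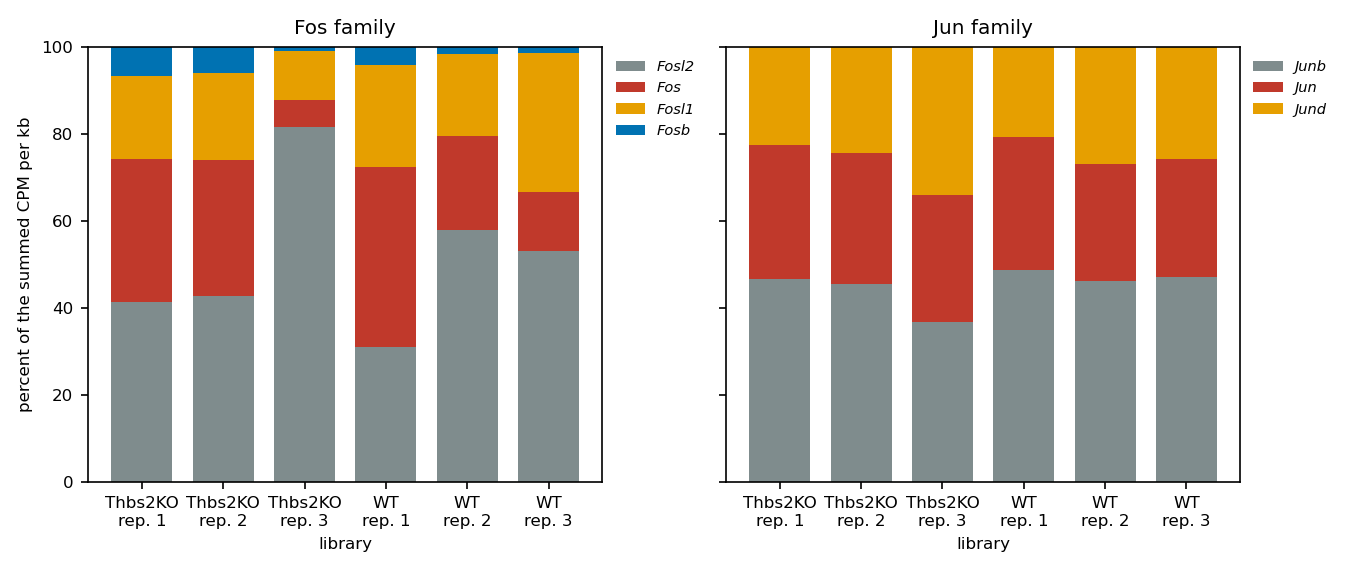
Share of the summed CPM per kb of exonic length held by each member of the Fos family (left) and of the Jun family (right) in each library, as stacked bars from 0 to 100 percent, with the Thbs2KO libraries left of the WT libraries. The share of Fos is lowest in Thbs2KO replicate 3 (6.26%) and highest in WT replicate 1 (41.5%), while Junb stays between 36.7% and 48.6%.

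The other genes of the pathway were read from 8 lists that exclude the 10 genes, with 154 distinct genes tested. The lists were chosen with earlier results of these data known, so their counts and shares are a description and support no statement. By edgeR with Benjamini-Hochberg adjustment over all genes 0 of the 154 passed the threshold. At an unadjusted p under 0.05, 7 were higher and 39 lower in Thbs2KO, that is 4.55% and 25.3% of the 154, against 5.72% and 7.56% of all tested genes. DESeq2 called 4 higher and 17 lower, where it called 2.21% of all tested genes higher and 2.93% lower. Over the 154 genes the median log2 fold change was -0.12. Without WT replicate 1 edgeR called 6 list genes higher and 10 lower, with 1.06% of all tested genes higher and 1.83% lower. Without both Thbs2KO replicate 3 and WT replicate 1 it called 19 list genes higher and 32 lower, with 4.78% of all tested genes higher and 6.37% lower. In that fit the other early response genes held 5 higher and 11 lower of 34, the ERK feedback list 6 higher and 4 lower of 18, and the AP-1 target genes 2 higher and 5 lower of 19. The LKB1, SIK, CRTC and CREB list held 0 higher and 3 lower of 26, the CREB and CRTC targets 1 higher and 3 lower of 15, and the SRF, TCF and MAP kinase list 2 higher and 4 lower of 23. The AP-1 partners and the heat shock list each held 2 higher and 2 lower of 13. The median log2 fold change of the ERK feedback list was 0.26 in that fit and -0.06 with all libraries, and that of the other early response genes was -0.18 in that fit and -0.39 with all libraries.

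Of the 34 other early response genes tested, 29 had log2 fold changes below 0 (median -0.39). With an unadjusted p below 0.05, 2 were higher and 12 lower, and the genotypes did not overlap in 11 with Thbs2KO lower and in 2, Zfp36l1 and Btg1, with Thbs2KO higher. These are 32.4% and 5.88% of the list, against 10.3% and 9.37% of all tested genes. Trib1, a pseudokinase that regulates MAP kinase signalling and protein degradation, measured 10.2, 10.9 and 7.72 CPM in Thbs2KO and 17.3, 16.4 and 16.2 CPM in WT (edgeR, Benjamini-Hochberg adjusted p = 0.0706). Plk2, polo-like kinase 2, measured 175, 177 and 146 CPM in Thbs2KO and 250.1, 210.5 and 263 CPM in WT. Ier5, a relative of Ier2, averaged 52.8 ± 0.801 CPM in Thbs2KO and 68.5 ± 5.03 CPM in WT (SD, n = 3 each). For these 3 genes the genotypes did not overlap.

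Of 26 tested genes of the LKB1, SIK, CRTC and CREB list, the kinases and coactivators around Sik1, 11 had negative log2 fold changes (median 0.05). With an unadjusted p below 0.05, 0 were higher and 3 lower. The relative Sik3 averaged 47.4 ± 0.947 CPM in Thbs2KO and 56.0 ± 6.63 CPM in WT, a log2 fold change of -0.24. Sik2, named to complete the family, averaged 25 ± 1.41 CPM in Thbs2KO and 24.2 ± 4.15 CPM in WT, a log2 fold change of 0.05 (SD, n = 3 each). Per kb Sik1 stood at 0.818 CPM in Thbs2KO and 3.24 CPM in WT. Hdac7, a class IIa histone deacetylase of the family that salt-inducible kinases phosphorylate, measured 105, 111 and 114 CPM in Thbs2KO and 127, 141 and 138 CPM in WT. Crem, a CREB relative, averaged 4.15 ± 0.939 CPM in Thbs2KO and 6.02 ± 0.89 CPM in WT. Among 15 tested CREB and CRTC target genes, 4 were lower and 0 higher at that level. The cyclic AMP phosphodiesterase Pde4b measured 11.5, 10.0 and 14.6 CPM in Thbs2KO and 18.9, 24 and 18.8 CPM in WT (edgeR, Benjamini-Hochberg adjusted p = 0.117). Cited2, a transcriptional coregulator that binds CBP and p300, had a log2 fold change of -0.80, and the nuclear receptor Nr4a3 of -1.45 at a level near 1 CPM.

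In the ERK feedback and MAP kinase phosphatase list, which Dusp1 would belong to, 2 of 18 were higher and 4 lower at that level. Dusp7 measured 45.5, 44.2 and 43.8 CPM in Thbs2KO and 33.5, 35.4 and 29.8 CPM in WT, and Spry2, an inhibitor of receptor tyrosine kinase signalling, 63.5, 54.8 and 72.4 CPM in Thbs2KO and 45.3, 40.1 and 28.9 CPM in WT. Dusp16, a JNK and p38 phosphatase, had a log2 fold change of -0.35. Of 23 genes of the SRF, TCF and MAP kinase machinery, 1 was higher and 5 lower at that level. Mrtfa, an SRF coactivator controlled by actin, averaged 52.5 ± 3.62 CPM in Thbs2KO and 75.8 ± 7.79 CPM in WT (edgeR, Benjamini-Hochberg adjusted p = 0.0706). Srf had a log2 fold change of -0.40 and the TCF factor Elk3 of -0.31. Among 13 AP-1 partners 2 were higher and 2 lower at that level, with log2 fold changes of -0.46 for Mafk and -0.58 for Maff, which are small Maf proteins, and 0.17 for Atf2.

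Of 19 genes known as targets of AP-1, 15 had negative log2 fold changes (median -0.39). With an unadjusted p below 0.05, 0 were higher and 8 lower. Ptgs2, the inducible cyclooxygenase, measured 294, 284 and 168 CPM in Thbs2KO and 393, 529.9 and 422 CPM in WT, and the cytokine Il11 2.36, 2.15 and 1.86 CPM in Thbs2KO and 4.18, 4.34 and 6.04 CPM in WT. Among the pericyte and smooth muscle markers, 8 of 11 tested also had negative log2 fold changes, with the summed levels given beside Sik1. Within Thbs2KO, replicate 3 was the lowest in the sum of the AP-1 targets (2881, 2989 and 2658 CPM) and the highest in that of the markers (2265, 2601 and 2705 CPM). WT replicate 1 was the lowest WT library in both sums. The part of these markers in the values of the AP-1 targets was not tested. In the heat shock and cell dissociation list 0 of 13 were higher and 4 lower at that level, with log2 fold changes of -0.77 for Hspb1, -0.44 for Hspa1b and -0.33 for Hspa1a.

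**Figure D5:**
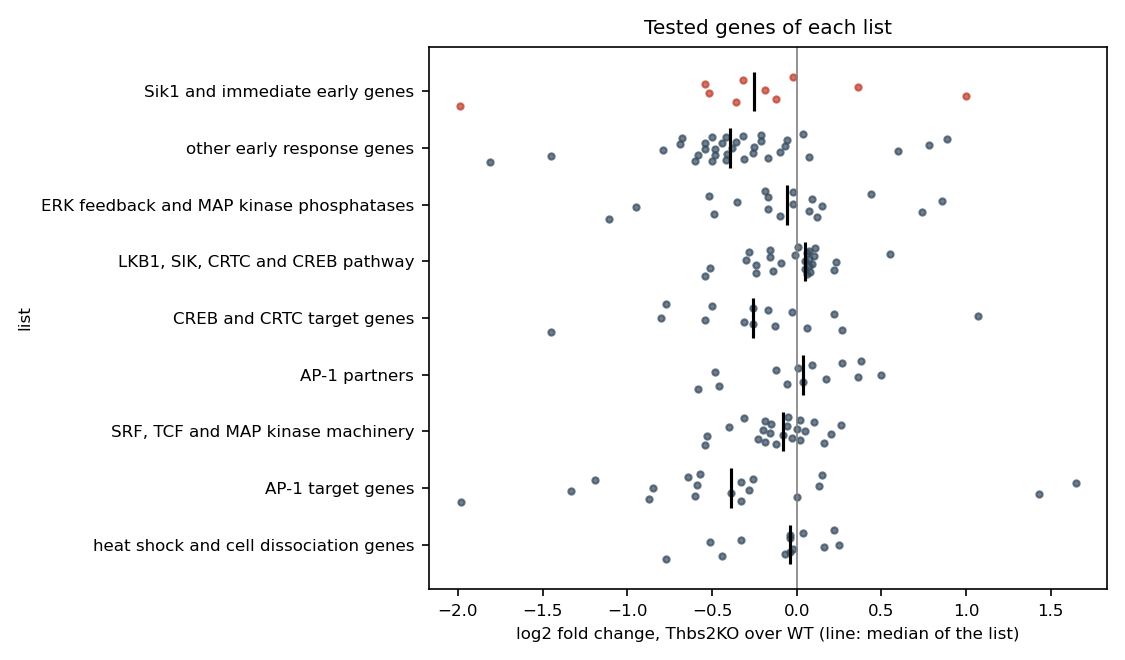
Log2 fold change of Thbs2KO over WT for each tested gene (points) of the 10 early genes (red) and of the 8 other lists (dark blue), with a black line at the median of each list. Medians run from -0.39 for other early response genes and for AP-1 target genes to 0.05 for the LKB1, SIK, CRTC and CREB pathway, and the point at the far left of the early genes is Sik1.

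Of the 10 genes, 3 lie on chromosome 17, the chromosome of Thbs2: Dusp1 is 11.8 Mb, Sik1 17.2 Mb and Ier3 21.1 Mb from Thbs2. Of the 141 tested genes within 10 Mb of Thbs2, 7.8% passed the threshold, as did 1.84% of the 272 genes 10 to 25 Mb away, which include these 3, and 0.991% of genes on all other chromosomes. The share within 10 Mb counts Thbs2 itself, which passed, and that at 10 to 25 Mb counts Sik1, which was chosen for passing. The 11 tested genes within 0.5 Mb of Sik1 had log2 fold changes between -0.25 and 0.17. Of these 0 passed edgeR's adjusted threshold and 0 had an unadjusted p under 0.05. The part of chromosomal position in the level of Sik1 was not tested.

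The genes whose levels were most like Sik1 over the 6 libraries, by Pearson correlation of log2 CPM among 10157 genes of at least 5 CPM, were Ntn4, Rpl34, Prepl, Lhfp and Chst12, all at r = 0.99. Ntn4, which encodes netrin-4, measured 4.44, 5.04 and 4.79 CPM in Thbs2KO and 47.6, 115 and 111 CPM in WT. Rpl34, a ribosomal protein gene, was also lower in Thbs2KO but with a smaller difference, at 219 ± 3.31 CPM in Thbs2KO and 282 ± 8.56 CPM in WT (SD, n = 3 each). A correlation of at least 0.9 with Sik1 was reached by 341 of the 10157 genes and with Fos by 59. With values centred on each genotype the counts were 253 for Sik1 and 201 for Fos, and the uncentred count for Sik1 includes the genotype difference by which Sik1 was chosen. Those most like Fos were Fbxl19, Clasrp, Polr3k, Tspyl2 and Zfp788, with r from 0.98 to 0.99, and their range was narrow: Fbxl19 ran from 28.8 to 35.2 CPM in Thbs2KO and from 30.7 to 35.5 CPM in WT. With centred values, Nom1, Igsf3, Nosip, Fam118a and Vps37b were most like Sik1 and Pitpnm1, Fbxl19, Bmyc, Rpl28 and Taf1 most like Fos. These correlations rest on 6 points that share libraries and scaling.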

How the data were processed

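RNA-seq was available for 6 CAF libraries, 3 Thbs2KO and 3 WT. The authors deposited RSEM expected counts, one value per gene and library, without scaling. The submitters' processing notes name mm10, STAR 2.7.3a, RSEM and Trimmomatic 0.39. The release of RSEM and of the gene models is not given in the sources here. Per the labels' protocols, libraries were made with a TruSeq v2 kit. RSEM divides reads between similar genes by estimation. From 3.80% to 3.88% of values were not whole and were rounded.

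Genes passing filterByExpr (13590 of 55401) were scaled with TMM and fitted in R 4.3.3 with edgeR 4.0.16 (quasi-likelihood, genotype as the only term, robust), with Benjamini-Hochberg adjustment over all tested genes and a threshold of 0.05. Every adjusted p comes from edgeR unless DESeq2 1.42.0 is named. Standard errors were derived from the F statistic. The 10 genes and the lists were chosen with earlier results of these data known. The naming rule took the 10 genes, list genes past the threshold and the 3 with the smallest p in each list. It also took the 5 genes most correlated with Sik1 and with Fos (log2 CPM, prior count of 2). Other named genes, such as markers and genes that carry a sum, are outside that rule, and not all are marked so where they appear. One gene that the rule names is not reported here. Lists, markers and families were read without set tests. Positions and exonic lengths come from GENCODE M21 (GRCm38, the build of mm10), which placed 99.96% of tested genes. Alternatives were other scalings, filters and tools (limma 3.58.1), no robust estimation, a replicate block and libraries left out or summed. Figures were drawn with matplotlib 3.10.9.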

Additional observations from a re-analysis of the deposited data

How the results depend on the processing

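Sik1 was lower in Thbs2KO under every alternative tried, with log2 fold changes from -2.17 to -1.85, and lost the adjusted threshold with the replicate block (edgeR, Benjamini-Hochberg adjusted p = 0.0649), with Thbs2KO replicates 1 and 2 summed (adjusted p = 0.076) and in 5 of 6 fits with 1 library left out. The median log2 fold change of the 10 genes was -0.26 with all libraries, ran from -0.4169 to 0.0015 with 1 library left out, and was 0.22 without Thbs2KO replicate 3 and WT replicate 1. The number of genes passing was 148; it was 699 by DESeq2, 245 with no filter, 40 with Thbs2KO replicates 1 and 2 summed, 1519 without Thbs2KO replicate 3 and WT replicate 1, and 38 to 397 with 1 library left out (38, 45 and 110 without Thbs2KO replicate 1, 2 or 3; 397, 79 and 49 without WT replicate 1, 2 or 3). List genes passing numbered 0, but 21 by DESeq2, 51 without Thbs2KO replicate 3 and WT replicate 1, and 0 to 16 with 1 library left out, the 16 being without WT replicate 1. The causes were not tested. With the replicate block 30 genes passed. Over all tested genes, same-numbered libraries deviated with correlations of -0.292, 0.171 and -0.331. With 3 libraries per genotype these values cannot settle whether the numbers mark pairs, and the main fit takes none. With the block the standard error fell for each of the 10 genes except Fosl1 (0.385 to 0.398). For Fos it fell from 0.827 to 0.42 and for Dusp1 from 0.269 to 0.137. In that fit 0 of the 10 genes passed the threshold. Fos changed sign with no filter (0.0083), a change far below its standard error. Counts of 58 to 101 reads limit Sik1 and Fosb in single Thbs2KO libraries.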

Other observations

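Some AP-1 target genes, chosen after their values were seen, shared the high level of WT replicate 1 that the early genes had. Ccnd1, which encodes cyclin D1, measured 87.1, 95.8 and 101 CPM in Thbs2KO and 238, 45.8 and 60.2 CPM in WT. The chemokine gene Ccl2 measured 38.9, 40.5 and 39.1 CPM in Thbs2KO and 87.5, 25.1 and 28.8 CPM in WT. Plaur, the urokinase receptor gene, had the opposite order within WT, at 32.1, 63.2 and 71.4 CPM, and measured 35.2, 36.3 and 19.8 CPM in Thbs2KO.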
